A study of Mus musculus with 23 samples.

Results

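The BCL2 family genes Bcl2, Bcl2l1, Mcl1, Bax, Bak1, Bbc3, Pmaip1, Bcl2l11, Bid and Bad were followed in 23 B16-F1 melanoma tumors. These 10 genes were taken by symbol from a table of 56748 genes, each symbol had 1 row, and the set was chosen with earlier results of these data known. B16-F1 is a mouse melanoma cell line, here implanted under the skin of the flank of DBA/2J mice of 6 to 8 weeks, a strain other than the one the line came from. Treatment began on day 6 and tumors were collected on day 14. In the intraperitoneal (IP) route, CTRL_IP received saline solution, PTX_IP received pentoxifylline at 60 mg/kg, NCTD_IP received norcantharidin at 3 mg/kg and MIX_IP received both at those doses, with 2 tumors in each group. In the intratumoral (IT) route, CTRL_IT received the solvent DMSO (4 tumors), and PTX_IT (3 tumors), NCTD_IT (4 tumors) and MIX_IT (4 tumors) received the same doses into the tumor. The labels give each route as its own batch, so route, batch and control solvent cannot be told apart. Pentoxifylline is a methylxanthine and norcantharidin is a demethylated form of cantharidin. The libraries read the 3′ end of messenger RNA, and the deposited values were counts of reads per gene.

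Proteins of this family decide whether the outer mitochondrial membrane stays intact. BCL2, BCL-XL (from Bcl2l1) and MCL1 hold the effectors BAX and BAK (from Bak1) in check. The BH3-only proteins, among them BIM (from Bcl2l11), PUMA (from Bbc3), NOXA (from Pmaip1), BID and BAD, bind the inhibitors or the effectors and so shift the balance towards release of cytochrome c and caspase activation. In pigment cells Bcl2 is a known target of the lineage factor MITF, and Bbc3 and Pmaip1 are known targets of p53.

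Between 2861578 and 6702374 reads were counted on genes in each tumor, with 3 counts, the floor of what these libraries can show, equal to between 0.448 and 1.03 CPM (counts scaled to a library of fixed size). This floor covers counting error only, since amplified reads are not independent molecules. The 10 melanocyte lineage markers summed to between 17791 and 42375 CPM and were detected throughout. In bulk tumor RNA, fewer cells of a type and less RNA per cell cannot be told apart. The X-inactivation transcript Xist and the Y-linked gene Ddx3y split the IT groups: Xist had 0 to 2 counts in CTRL_IT and 0 in MIX_IT but 5 to 51 in PTX_IT and NCTD_IT and 55 in 1 CTRL_IP tumor, and Ddx3y had at least 4 counts in every CTRL_IT and MIX_IT tumor and at most 1 in PTX_IT and NCTD_IT. The sex of the host cells and treatment with a single drug by the IT route therefore cannot be told apart from these groups. A pair of libraries stood apart in their marker genes. NCTD_IT tumor 18 had 1091 CPM of neutrophil markers, against 3.95 to 11.2 CPM in CTRL_IT and a median of 37.1 CPM in its own group, and MIX_IT tumor 23 had 8578 CPM of fibroblast markers and the lowest melanocyte sum.

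The levels of the 10 genes kept a fixed outline across the tumors. Mcl1, whose protein is short-lived and guards against BAK, was the most abundant in 23 of 23 tumors, with a median of 241 CPM, and its counts made up 52.4% of all counts of the 10 genes. It was followed by Bid (64.1 CPM), Bcl2l1 (51.5 CPM), Bcl2 (44.0 CPM), Bcl2l11 (14.6 CPM), Bbc3 (12.6 CPM), Bad (8.11 CPM), Bak1 (3.46 CPM), Bax (2.24 CPM) and Pmaip1 (1.71 CPM). Several neighbours in this order overlapped: Bcl2l1 exceeded Bcl2 in 16 of 23 tumors, Bak1 exceeded Bax in 14 and Bax exceeded Pmaip1 in 12. Dividing by the gene length listed in the table, which matters less for 3′ libraries, moved Bbc3 (5.93 CPM per kb) above Bcl2 (4.81 CPM per kb) and Bad (3.17 CPM per kb) above Bcl2l11 (1.82 CPM per kb), and left Mcl1 first at 70.6 CPM per kb.

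Since Mcl1 was the most abundant member and Bcl2l11 the one whose level followed it most closely (given further on), the 250 bases before their start sites are shown, 5′ to 3′ on the strand of the gene, from RefSeq on GRCm38.p6, a build other than that of the counts. The Mcl1 window lies at chr3:95658471-95658720 and the Bcl2l11 window, the first of 2 listed, at chr2:128125788-128126037, both on the plus strand. Capitals mark GGGCGG (the GC box) or its reverse complement, and GTAAACA (a forkhead motif) or its reverse complement.
Mcl1: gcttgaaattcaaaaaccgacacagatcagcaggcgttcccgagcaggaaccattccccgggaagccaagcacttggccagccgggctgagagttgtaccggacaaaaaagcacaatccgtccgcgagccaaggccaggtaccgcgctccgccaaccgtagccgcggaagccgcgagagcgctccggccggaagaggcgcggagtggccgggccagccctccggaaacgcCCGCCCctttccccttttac
Bcl2l11: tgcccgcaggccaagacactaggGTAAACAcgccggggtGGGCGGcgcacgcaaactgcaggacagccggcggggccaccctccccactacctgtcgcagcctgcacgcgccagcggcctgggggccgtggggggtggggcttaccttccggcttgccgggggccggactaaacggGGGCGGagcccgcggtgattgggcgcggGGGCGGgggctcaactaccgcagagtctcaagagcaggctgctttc
The Mcl1 window held 1 GC box and the Bcl2l11 window held 3 and 1 forkhead motif. On either strand, GC boxes occurred in 32.7% of 32851 windows of this length and the forkhead motif in 3.17%. Of the 9 members with a window, 7 had a GC box and 2, Bbc3 and Bcl2l11, had the forkhead motif in at least 1 window. Counted by window, to match these rates, 10 of 15 had a GC box and 2 of 15 the forkhead motif. CCAAT was in 4 of the 15, CACGTG in 2 and TGACGTCA in 0, against 33.8%, 6.02% and 1.55% of all windows. TATAAA and TCATGTG, searched on both strands, were in none of the 15 windows of the 9 members, against 12.4% and 3.25% of all windows. These matches are descriptions of letters and not binding sites.

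The lowest members carried few reads. Pmaip1 had no count in 4 tumors and 3 or fewer in 6, with a highest count of 37, while Bax ranged from 1 to 19 counts and Bak1 from 3 to 43. Mcl1 had between 561 and 1907 counts. Differences that could be seen for Mcl1 were therefore not detectable at this depth for Pmaip1, Bax and Bak1. All 10 genes passed the filter on low counts in both routes.

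**Figure D1:**
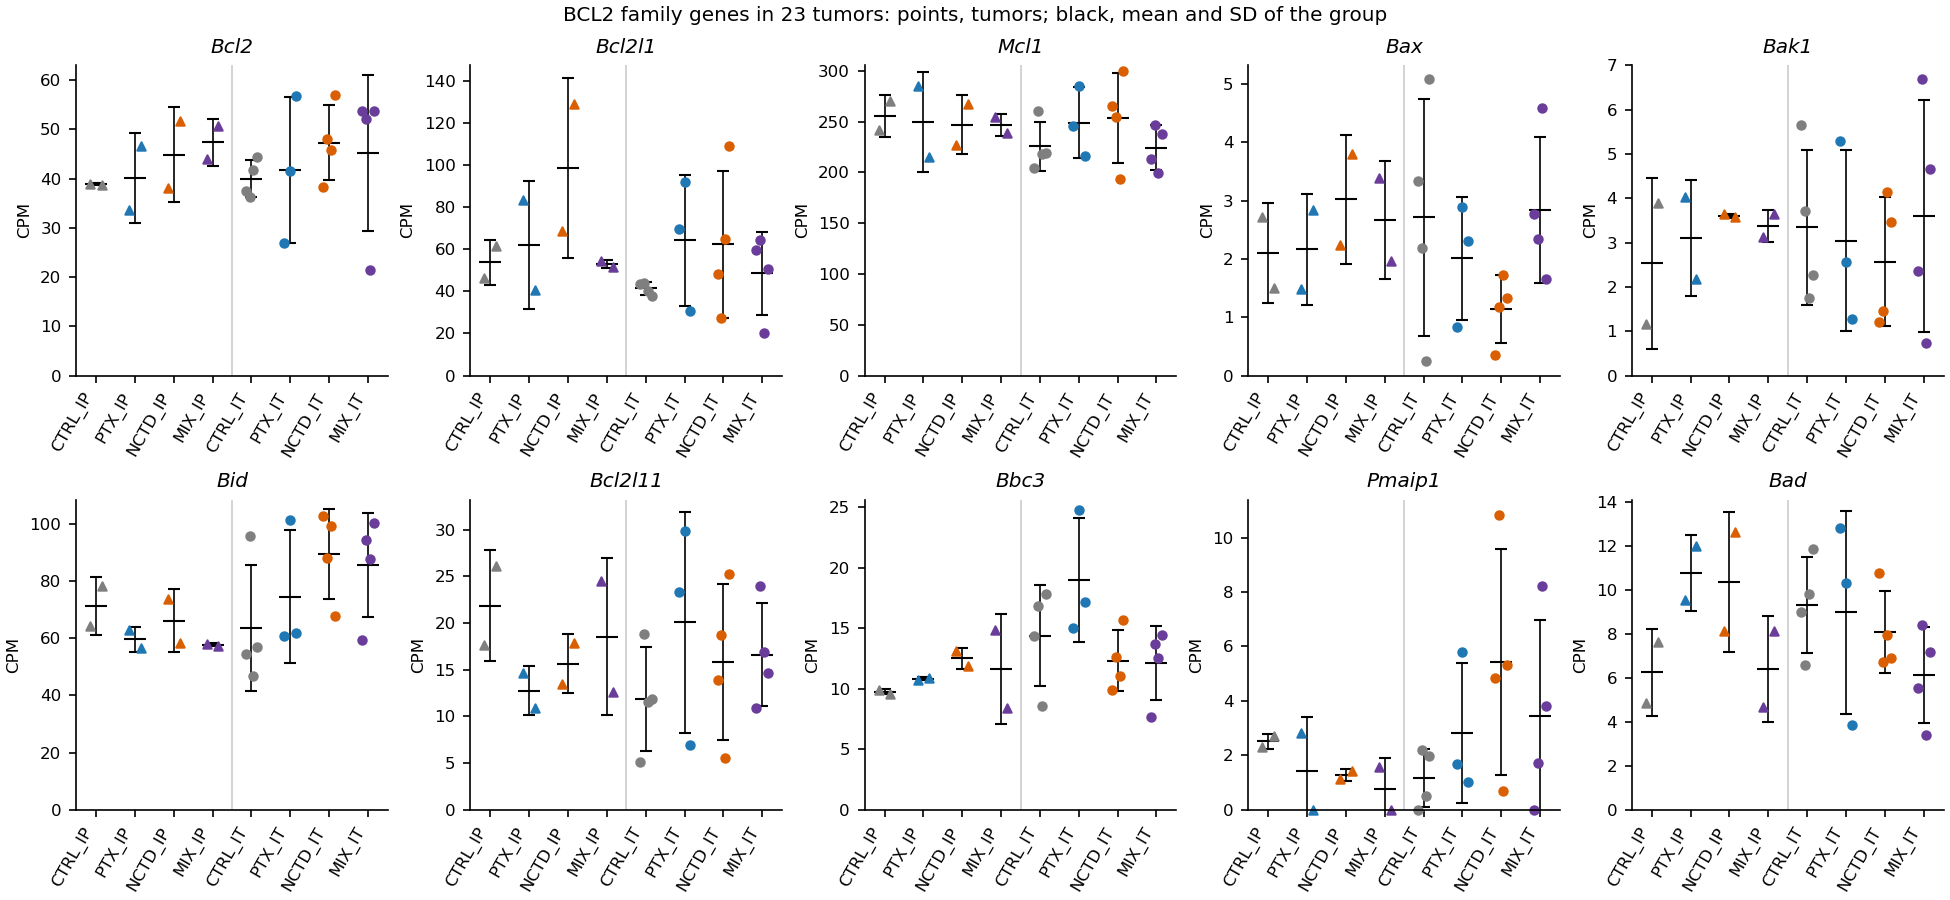
CPM of each BCL2 family gene (y axis, from 0) in the 8 groups (x axis), with triangles for IP tumors, circles for IT tumors, and black bars for the mean and the SD of a group. Mcl1 stays between 193 and 300.1 CPM in all tumors, whereas Pmaip1 spans 0 to 10.8 CPM.

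Most of the counts of these 10 genes came from the inhibitors, and within them from Mcl1. The inhibitors Bcl2, Bcl2l1 and Mcl1 together took 64.2% to 80.4% of the counts of the 10 genes. The BH3-only genes took 18.3% to 34.4%, and the effectors Bax and Bak1 0.315% to 2.38%. Genes of the wider BCL2 family are outside these shares, among them Bnip3l, with a mean of 496 CPM in CTRL_IT. The share of the inhibitors was 74.6% ± 3.80 (SD, n = 4) in CTRL_IT, 73.5% ± 3.05 (n = 3) in PTX_IT, 72.5% ± 4.19 (n = 4) in NCTD_IT and 70.9% ± 5.94 (n = 4) in MIX_IT. The differences between these means were smaller than the SD within MIX_IT. The effectors took 1.48% ± 0.794 in CTRL_IT, 1.05% ± 0.240 in PTX_IT, 0.759% ± 0.442 in NCTD_IT and 1.43% ± 0.234 in MIX_IT. In the same order, Pmaip1 took 0.266% ± 0.238, 0.530% ± 0.385, 1.09% ± 0.895 and 0.827% ± 0.965 (SD, n as above). In the IP groups the share of the inhibitors lay between 75.0% in CTRL_IP and 77.6% in PTX_IP, while Bcl2l1 alone took 11.5% ± 1.07 in CTRL_IP and 19.2% ± 5.54 in NCTD_IP (SD, n = 2). Summed over the 10 genes, the level was 413 CPM ± 51.4 in CTRL_IT, 485 CPM ± 101 in PTX_IT, 498 CPM ± 67.6 in NCTD_IT and 448 CPM ± 64.4 in MIX_IT. It was 464 CPM ± 50.1 in CTRL_IP.

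**Figure D2:**
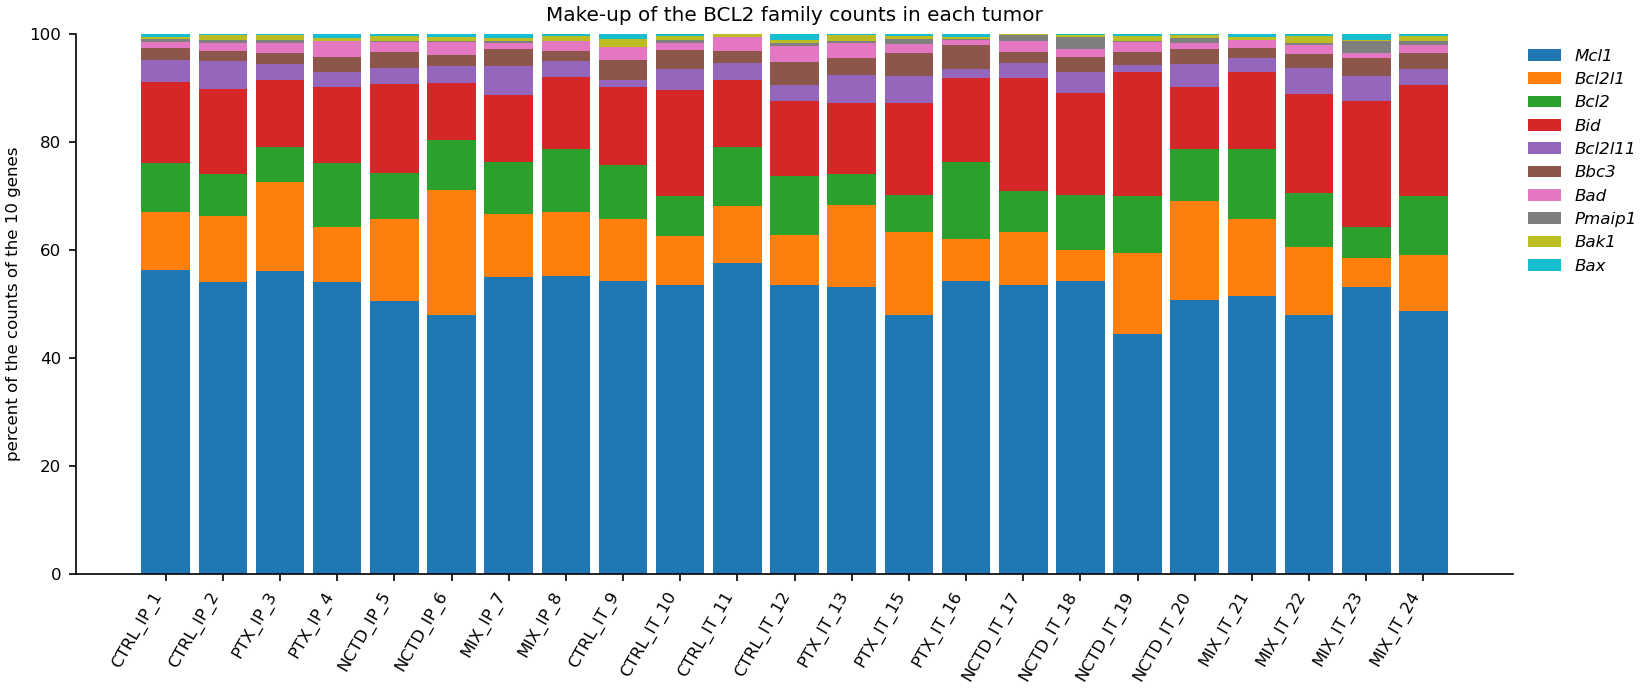
Percent of the counts of the 10 BCL2 family genes (y axis) that each gene took in each of the 23 tumors (x axis). Mcl1 takes between 44.5% and 57.6% in every tumor, and Bax, Bak1 and Pmaip1 form thin bands.

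The drugs and their mixture were set against the same-route control with the quasi-likelihood test of edgeR, and p-values were adjusted over all genes tested by the Benjamini-Hochberg method. Of the 10 family genes, 0 passed at 0.05 in these 6 comparisons. In NCTD_IT, where 1.37% of 12480 genes passed, the count was 0 of 10 at both the adjusted and the unadjusted threshold, against 21.6% of all genes at an unadjusted p below 0.05, and DESeq2 gave 1 gene, Pmaip1, at the unadjusted threshold. The unadjusted count in NCTD_IT was 3 with no filter on low counts and 1 with all 23 tumors in 1 fit. The percentages of all genes given in this paragraph are from the edgeR test named above. Those under the other settings are not given here, so these counts have no background beside them. In PTX_IT and MIX_IT, 0% of all genes passed, and 0 of 10 family genes had an unadjusted p below 0.05 by either tool, against 6.35% and 13% of all genes, although 2 did in PTX_IT with no filter on low counts. In the IP route 0% of 12424 genes passed in each comparison, and Bcl2l1 in NCTD_IP was the only member below 0.05 unadjusted, by edgeR and by DESeq2, against 3.59%, 5.3% and 2.94% of all genes in NCTD_IP, PTX_IP and MIX_IP. With 2 tumors per group in the IP route and 3 or 4 in the IT route, p-values measure the spread between these tumors only.

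**Figure D3:**
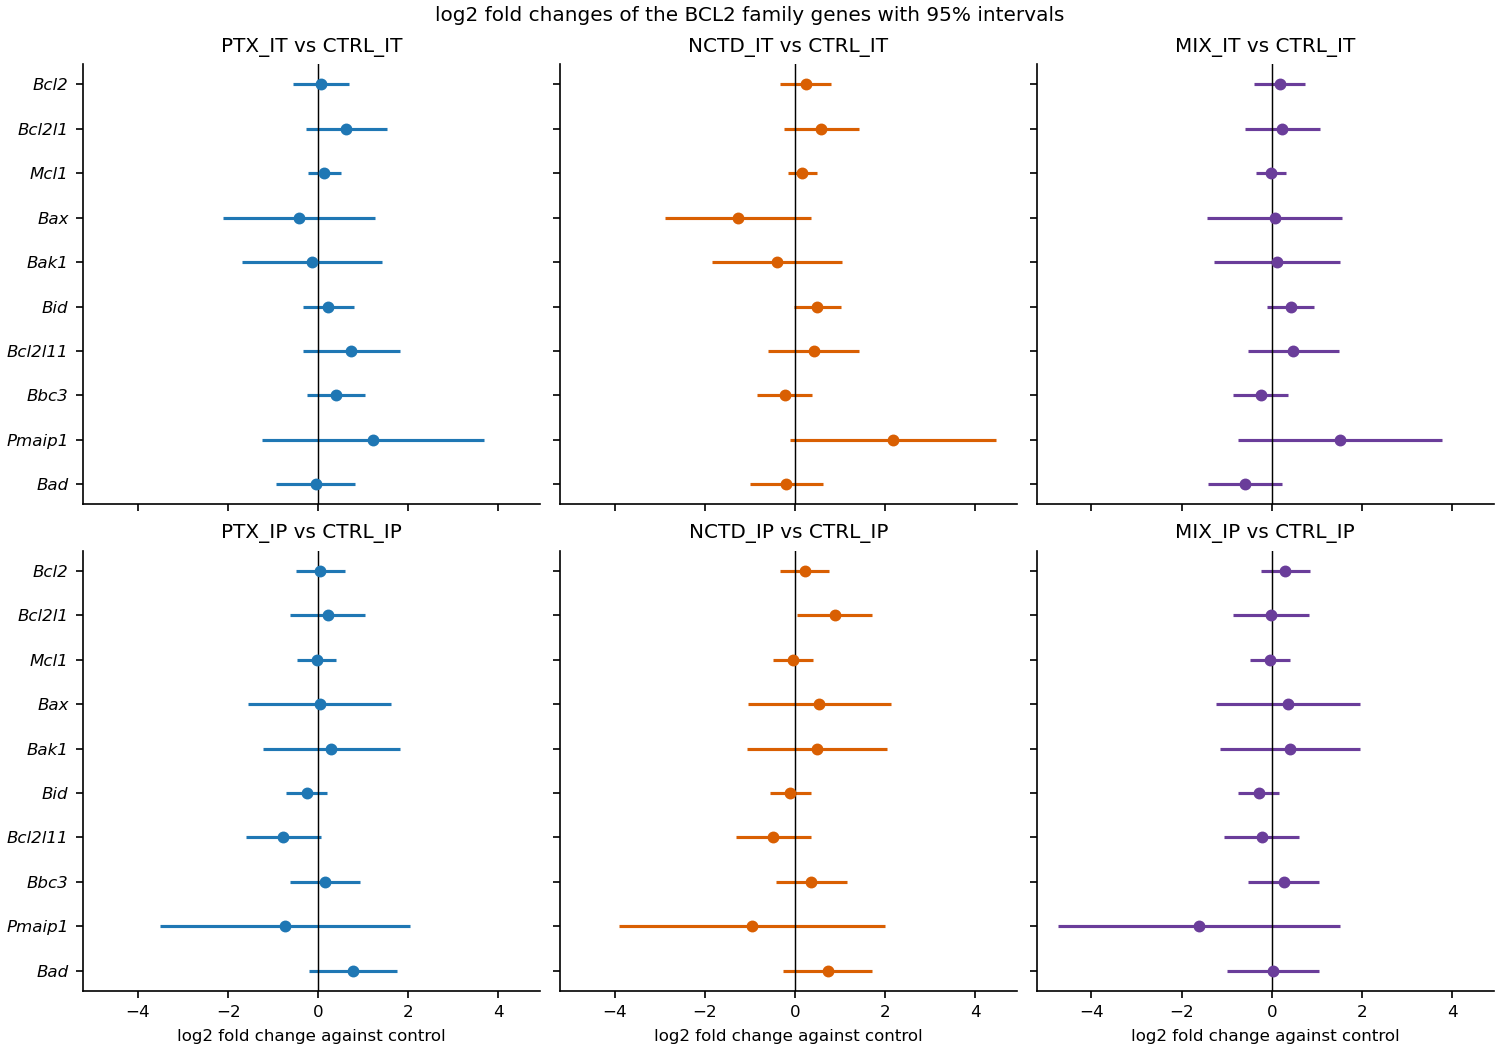
log2 fold change of each BCL2 family gene against the control of its route (x axis) in 6 comparisons, with points for edgeR estimates and lines for 95% intervals. Only the interval of Bcl2l1 in NCTD_IP lies off 0, and those of Pmaip1, Bax and Bak1 are the widest.

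The inhibitors came first by level. Mcl1 (chromosome 3, 95566099 to 95570487, GRCm39) had 205, 261, 218 and 219 CPM in CTRL_IT, 245, 285 and 216 CPM in PTX_IT, 265, 254, 193 and 300.1 CPM in NCTD_IT, and 214, 247, 199 and 238 CPM in MIX_IT. The groups overlapped throughout, and the highest and the lowest of all 23 tumors both belonged to NCTD_IT. The log2 fold change of Mcl1 was 0.17 (95% interval -0.17 to 0.50) in NCTD_IT, 0.14 (-0.22 to 0.50) in PTX_IT and -0.01 (-0.34 to 0.32) in MIX_IT. These were the narrowest intervals in the family for the IT route. In the IP route Mcl1 ranged from 215 to 285 CPM, with log2 fold changes between -0.05 and -0.03.

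Bcl2 (chromosome 1, 106465908 to 106642004, GRCm39) had 37.5, 36.3, 41.7 and 44.3 CPM in CTRL_IT. It had 27.0, 41.4 and 56.7 CPM in PTX_IT, 38.3, 48.0, 45.9 and 56.9 CPM in NCTD_IT, and 53.6, 52.0, 21.5 and 53.7 CPM in MIX_IT. In MIX_IT 3 tumors therefore lay above every control tumor and tumor 23 lay below all of them. The log2 fold change in MIX_IT was 0.18 (SE 0.27, adjusted p = 0.824) and was 0.24 (SE 0.27, adjusted p = 0.636) in NCTD_IT. With NCTD_IT tumor 18 and MIX_IT tumor 23 left out, it was 0.40 in MIX_IT (adjusted p = 0.626). Of the IP tumors, the 2 MIX_IP tumors, at 44.0 and 50.7 CPM, lay above the 2 CTRL_IP tumors, at 38.9 and 38.7 CPM, with a log2 fold change of 0.30 (adjusted p = 0.999).

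Bcl2l1 (chromosome 2, 152622588 to 152673648, GRCm39) was tight in CTRL_IT (SD 2.97 CPM) and wider in PTX_IT (31.0), NCTD_IT (34.8) and MIX_IT (19.7). It had 43.4, 44.2, 40.0 and 37.8 CPM in CTRL_IT, but 69.8, 91.9 and 30.8 CPM in PTX_IT and 48.0, 27.2, 64.8 and 109 CPM in NCTD_IT. In both of these groups all tumors but 1 lay above the controls and the remaining tumor lay below them. MIX_IT had 59.4, 64.2, 20.3 and 50.4 CPM, again with tumor 23 as the lowest. The log2 fold change was 0.59 (SE 0.40, adjusted p = 0.405) in NCTD_IT, 0.62 (SE 0.42, adjusted p = 0.821) in PTX_IT and 0.23 (SE 0.39, adjusted p = 0.848) in MIX_IT. With NCTD_IT tumor 18 and MIX_IT tumor 23 left out, it was 0.84 in NCTD_IT (adjusted p = 0.148) and 0.48 in MIX_IT (adjusted p = 0.690). It was 0.18 in NCTD_IT without tumor 20 (adjusted p = 0.831), and in PTX_IT it was 0.28 without tumor 15 and 0.95 without tumor 16 (adjusted p = 0.323).

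By the IP route Bcl2l1 had 68.5 and 129 CPM in NCTD_IP against 46.1 and 61.3 CPM in CTRL_IP. The groups did not overlap and the log2 fold change was 0.88 (95% interval 0.05 to 1.71, unadjusted p = 0.0406, adjusted p = 0.999). It was 0.37 (unadjusted p = 0.377) without NCTD_IP tumor 6 and 1.26 (unadjusted p = 0.0117) without NCTD_IP tumor 5, and the unadjusted p was below 0.05 in 1 of the 4 fits that left out a tumor of either group. PTX_IP had 83.3 and 40.5 CPM, on both sides of the controls, and MIX_IP had 54.4 and 51.5 CPM, between them. The ratio of Bcl2l1 to Bcl2 was 1.08 ± 0.33 on the log2 scale in NCTD_IP and 0.45 ± 0.30 in CTRL_IP (SD, n = 2).

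Of the effectors, Bax (chromosome 7, 45111121 to 45116322, GRCm39) had the lowest mean in NCTD_IT. Its values were 3.34, 2.19, 0.251 and 5.08 CPM in CTRL_IT and 0.347, 1.17, 1.72 and 1.33 CPM in NCTD_IT. The NCTD_IT tumors lay below 3 of the 4 controls and above CTRL_IT tumor 11, in which Bax had 1 count. The log2 fold change was -1.27 (SE 0.76, adjusted p = 0.346), and without CTRL_IT tumor 11 it was -1.64 with an unadjusted p of 0.0311 and an adjusted p of 0.234, whereas without CTRL_IT tumor 12 it was -0.76 (adjusted p = 0.673). In MIX_IT Bax had 2.78, 2.34, 4.59 and 1.66 CPM and a log2 fold change of 0.06 (95% interval -1.43 to 1.56), so that MIX_IT exceeded NCTD_IT by 1.33 on the log2 scale (95% interval -0.27 to 2.93, adjusted p = 0.818). Bak1 (chromosome 17, 27238784 to 27247983, GRCm39) ranged from 0.725 CPM in MIX_IT tumor 23 to 6.697 CPM in MIX_IT tumor 22. Its log2 fold changes lay between -0.40 in NCTD_IT and 0.49 in NCTD_IP, with standard errors of 0.66 to 0.74.

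Among the BH3-only genes, Pmaip1 (chromosome 18, 66591604 to 66598636, GRCm39) had the largest log2 fold changes of the family in the IT route, at 1.22 in PTX_IT, 1.51 in MIX_IT and 2.18 in NCTD_IT. The values were 0, 2.19, 0.503 and 1.98 CPM in CTRL_IT and 4.85, 10.8, 0.690 and 5.32 CPM in NCTD_IT. Of the 4 NCTD_IT tumors, 3 lay above every control and tumor 19 lay within them. PTX_IT had 1.67, 5.78 and 1.03 CPM and MIX_IT had 0, 1.71, 8.22 and 3.82 CPM. Without PTX_IT tumor 15 the log2 fold change in PTX_IT was 0.19, below those of Bcl2l1 (0.28) and Bcl2l11 (0.35) in the same fit. Over the fits that left out 1 tumor it ran from 1.63 to 2.71 in NCTD_IT and from 0.66 to 2.04 in MIX_IT. In NCTD_IT the 95% interval ran from -0.10 to 4.47, with an unadjusted p of 0.0598 and an adjusted p of 0.251. The 2 highest values, 10.8 and 8.22 CPM, belonged to the 2 libraries that stood apart in neutrophil and fibroblast markers, and without these 2 tumors the log2 fold change was 1.63 (adjusted p = 0.404) in NCTD_IT and 0.66 (adjusted p = 0.886) in MIX_IT. Whether those cells carried the Pmaip1 reads was not tested.

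By the IP route Pmaip1 had 2.32 and 2.697 CPM in CTRL_IP, 2.84 and 0 CPM in PTX_IP, 1.12 and 1.43 CPM in NCTD_IP, and 1.56 and 0 CPM in MIX_IP. Both NCTD_IP and MIX_IP lay below the controls, at 0 to 6 counts per tumor. The log2 fold changes were -0.96 (SE 1.31) in NCTD_IP and -1.61 (SE 1.39) in MIX_IP, both with an adjusted p of 0.999, and such fitted values depend on the prior count where a tumor is at 0. The NCTD effect by the IT route exceeded that by the IP route by 3.15 on the log2 scale (95% interval -0.90 to 7.20, adjusted p = 0.572).

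Bid (chromosome 6, 120868891 to 120893814, GRCm39), whose protein is cut downstream of death receptors, had 54.5, 95.8, 46.8 and 56.8 CPM in CTRL_IT. It had 103, 88.1, 99.3 and 67.8 CPM in NCTD_IT and 59.4, 94.2, 87.8 and 100.4 CPM in MIX_IT. PTX_IT had 60.6, 101 and 61.8 CPM, with a log2 fold change of 0.22 (adjusted p = 0.899). All tumors of NCTD_IT, MIX_IT and PTX_IT lay above 3 of the 4 controls, and CTRL_IT tumor 10 lay among the treated tumors. The log2 fold change was 0.50 (95% interval -0.03 to 1.02, adjusted p = 0.254) in NCTD_IT and 0.42 (-0.10 to 0.95, adjusted p = 0.488) in MIX_IT. Without CTRL_IT tumor 10 these were 0.78 (adjusted p = 0.0783) and 0.70 (adjusted p = 0.257). Bid overlaps Bcl2l13 on the opposite strand, and with the strand setting of the counting not given in the sources used here, reads of the pair may have been shared; over all tumors Bid had 7568 counts and Bcl2l13 had 4806.

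By the IP route Bid was lower than in CTRL_IP (64.1 and 78.4 CPM) in both PTX_IP tumors (62.7 and 56.5 CPM) and both MIX_IP tumors (58.1 and 57.4 CPM). The log2 fold changes were -0.26 and -0.29, with adjusted p of 0.939 and 0.999. The MIX effect on Bid differed between the routes by 0.73 on the log2 scale (95% interval -0.08 to 1.55, unadjusted p = 0.0749, adjusted p = 0.702).

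Bcl2l11 (chromosome 2, 127967958 to 128004467, GRCm39) had 5.14, 18.8, 11.6 and 11.9 CPM in CTRL_IT, 23.4, 29.9 and 6.92 CPM in PTX_IT, 13.9, 18.7, 5.52 and 25.3 CPM in NCTD_IT, and 10.9, 23.99, 16.9 and 14.6 CPM in MIX_IT. Each IT group held at least 1 tumor inside the control range. IP tumors had 17.6 and 26.1 CPM in CTRL_IP and 14.6 and 10.9 CPM in PTX_IP, which did not overlap. The PTX log2 fold change was 0.74 (SE 0.51) by the IT route and -0.77 (SE 0.37) by the IP route. The difference between the routes was 1.52 (95% interval -0.11 to 3.15, unadjusted p = 0.0666, adjusted p = 0.892).

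Bbc3 (chromosome 7, 16042318 to 16052130, GRCm39) was highest in PTX_IT, at 15.02, 24.7 and 17.2 CPM. MIX_IT, at 7.69, 13.7, 12.6 and 14.5 CPM, lay wholly below PTX_IT, as did 4.23% of all genes in one direction or the other. The log2 difference of MIX_IT from PTX_IT was -0.64 (95% interval -1.29 to 0.01, unadjusted p = 0.0523, adjusted p = 0.982). In CTRL_IT Bbc3 spanned 8.55 to 17.8 CPM and overlapped both groups. Bad (chromosome 19, 6919229 to 6929267, GRCm39) had 12.8, 10.3 and 3.85 CPM in PTX_IT and between 3.39 and 8.41 CPM in MIX_IT, against 6.56 to 11.9 CPM in CTRL_IT. The log2 fold change of Bad was -0.59 (SE 0.38, adjusted p = 0.545) in MIX_IT and 0.77 (SE 0.43, adjusted p = 0.906) in PTX_IP. Bad overlaps Gpr137 on the opposite strand, with 834 and 1154 counts over all tumors.

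Against the controls of the IT route, the groups overlapped for all 10 family genes, while 16.8% of genes in NCTD_IT, 7.94% in PTX_IT and 9.9% in MIX_IT did not overlap. In the IP route, with 2 tumors on each side, 4 family genes did not overlap in NCTD_IP (Bcl2l1, Bbc3 and Bad higher, Pmaip1 lower), 4 in PTX_IP (Bbc3 and Bad higher, Bcl2l11 and Bid lower) and 3 in MIX_IP (Bcl2 higher, Pmaip1 and Bid lower). The background was 34.3%, 31.8% and 35.9% of all genes, so that these counts were near it.

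Combined treatment was set against each drug alone in the IT route. Of the 10 genes, 0 passed between MIX_IT and NCTD_IT (0.00801% of all genes passed) and 0 between MIX_IT and PTX_IT (0%), and 0 had an unadjusted p below 0.05 by edgeR or DESeq2, against 6.02% and 3.75% of all genes by edgeR. Between MIX_IT and NCTD_IT, 0 members and 2.99% of all genes did not overlap. Nor did any member depart from the sum of the drugs at an adjusted p below 0.05, where 0.0401% of all genes did and where 0 members had an unadjusted p below 0.05 by either tool, against 11.3% of all genes by edgeR. For 8 of the 10 genes the fitted departure was negative. The departure was -0.98 (95% interval -2.21 to 0.24) for Bcl2l1, -1.89 (-5.12 to 1.35) for Pmaip1 and 1.76 (-0.56 to 4.08) for Bax, the last 2 with few counts. The median departure of the family was -0.33, against -0.01 over all genes. Effects by the IT and the IP route were compared in a fit of all 23 tumors. For NCTD, PTX or MIX 0 members passed, as did 0% of 13395 genes. Below an unadjusted 0.05 there were 0 members by edgeR or DESeq2. By edgeR 10.8%, 5.23% and 7.44% of all genes were below it for NCTD, PTX and MIX. Route, solvent and batch cannot be told apart in these differences.

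The median log2 fold change of the 10 genes, set against that of all genes tested, was 0.20 against 0.03 in NCTD_IT, 0.18 against 0.02 in PTX_IT and 0.15 against 0.01 in MIX_IT. In the IP route it was 0.29 against -0.01 in NCTD_IP, 0.04 against 0.01 in PTX_IP and 0.01 against -0.01 in MIX_IP. Between 5 and 7 of the 10 genes were higher than control in each comparison.

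Within groups, the variation of several members ran with the summed levels of cell type markers. After centring log2 CPM within each of the 8 groups, Mcl1 followed the summed level of 12 T and NK cell markers with Spearman's rho of 0.93 and Pearson's r of 0.88, and that of 9 macrophage markers with a rho of 0.84, over 23 tumors. Bcl2l11 followed the macrophage markers with a rho of 0.84 and the T and NK cell markers with 0.79. For the melanocyte markers the rho was 0.38 for Mcl1 and 0.14 for Bcl2l11. Of the lists not drawn below, skeletal muscle had a rho of 0.51 with Mcl1 and 0.60 with Bcl2l11. Keratinocytes had 0.38 and 0.41. These values describe 23 tumors that share 8 groups and a common library scale, and the part of infiltrating cells in the levels was not tested. Centring makes both tumors of an IP group mirror each other, so there are fewer than 23 independent points. The share of all genes that follow these markers as closely is not given here.

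**Figure D4:**
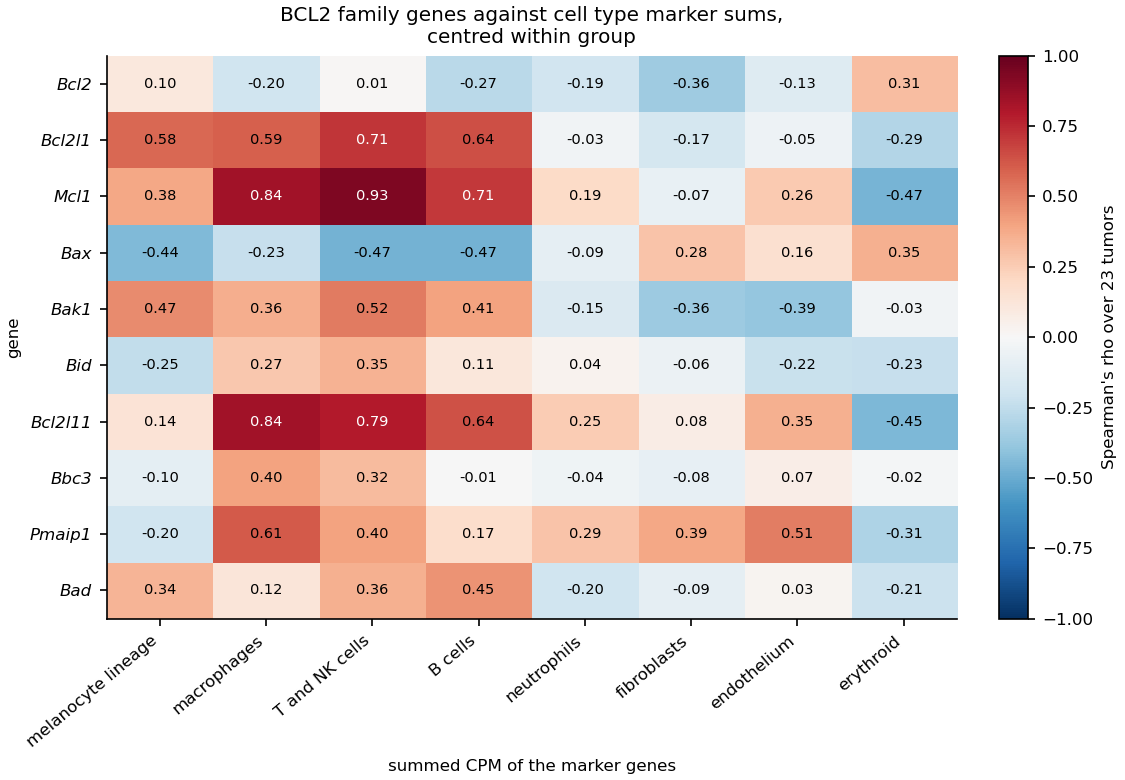
Spearman's rho between each BCL2 family gene (y axis) and the summed CPM of 8 lists of cell type markers (x axis) over 23 tumors, both centred within group. Mcl1 and Bcl2l11 have the highest values, for T and NK cells and macrophages, and Bax is negative for both.

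The tumors at the ends of these relations can be named. The T and NK cell markers summed to 372 CPM in NCTD_IT tumor 20, which also had the highest Mcl1 (300.1 CPM), and to 3.87 CPM in MIX_IT tumor 23, where Mcl1 was 199 CPM. PTX_IT tumor 16 had the lowest macrophage sum, at 181 CPM, and 6.92 CPM of Bcl2l11, against 29.9 CPM in PTX_IT tumor 15. Of the B cell markers, Ms4a1 and Cd79a stayed under 3 counts in every tumor. Bcl2l1 also followed the T and NK cell markers (rho 0.71) and, unlike the other 2 genes, the melanocyte markers (rho 0.58). Bcl2 had a rho of 0.01 with T and NK cell markers and -0.20 with macrophage markers.

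**Figure D5:**
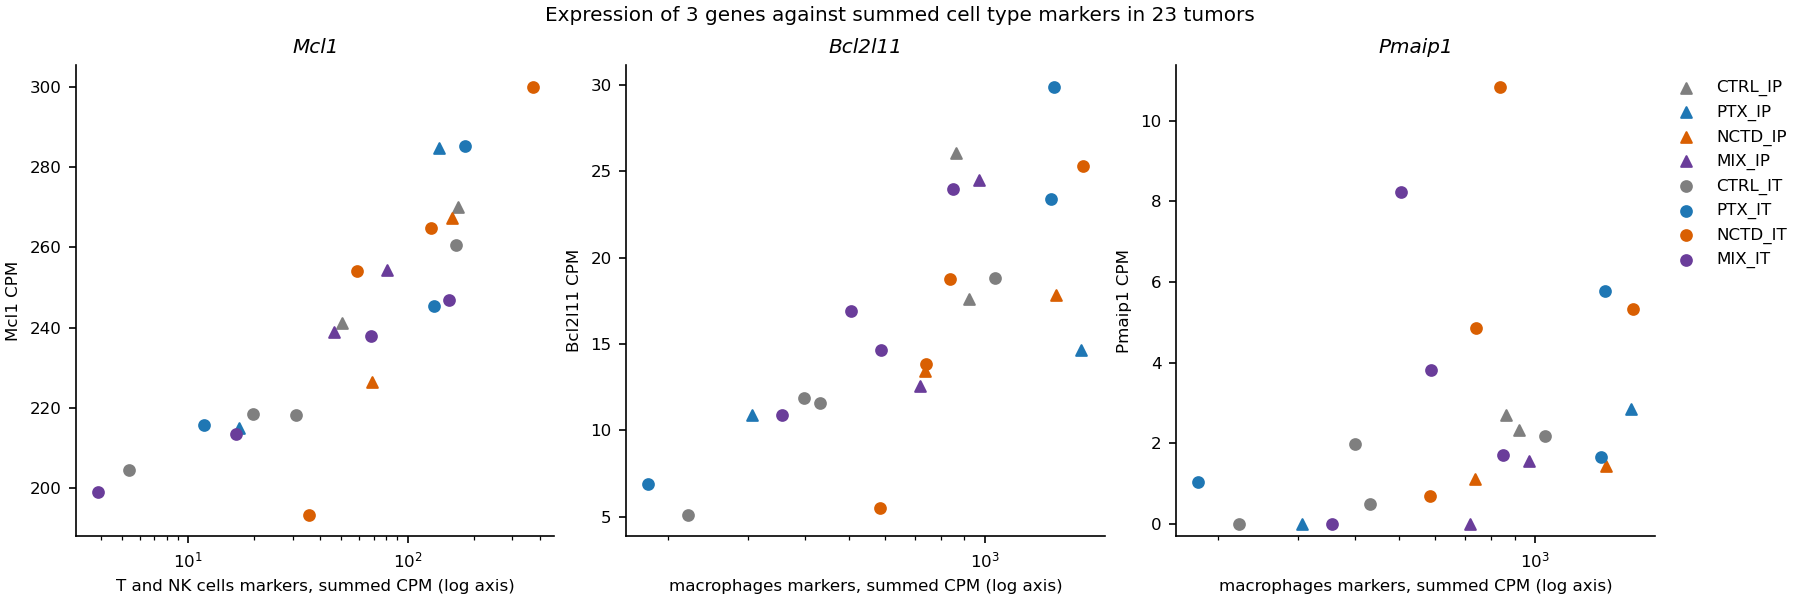
CPM of Mcl1, Bcl2l11 and Pmaip1 (y axes) against the summed CPM of T and NK cell or macrophage markers (x axes, log scale) in the 23 tumors, colored by treatment with circles for IT and triangles for IP. Mcl1 is at 199 CPM in the tumor of lowest T and NK cell sum and at 300.1 CPM in that of the highest, and the 2 highest Pmaip1 points lie between 505 and 836 CPM of macrophage markers.

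The group medians of these markers differed between groups. The macrophage sum had a median of 416 CPM in CTRL_IT (222 to 1051), 1393 CPM in PTX_IT (181 to 1421), 788 CPM in NCTD_IT (587 to 1641) and 547 CPM in MIX_IT (356 to 848). The T and NK cell sum had medians of 25.3, 132, 93.2 and 42.3 CPM in the same order. The share of counts on mitochondrial genes was 2.42% to 2.68% in CTRL_IT, 2.97% to 3.86% in PTX_IT, 2.47% to 6.32% in NCTD_IT and 3.57% to 5.73% in MIX_IT, and its part in the results was not tested. In NCTD_IT 2 of 4 tested neutrophil markers passed (1.37% of all genes), S100a8 with a log2 fold change of 5.60 and S100a9 with 6.63, with 294 and 756 CPM in tumor 18 and 4.26 to 25.5 CPM in the other 3 tumors, against at most 3.52 CPM in CTRL_IT. Without NCTD_IT tumor 18 and MIX_IT tumor 23 these were 2.53 for S100a8 (adjusted p = 0.0387) and 2.75 for S100a9 (adjusted p = 0.0565). Ly6g, a defining neutrophil marker, had 0 counts in every IT tumor. Fibroblast markers were higher in 6 of 6 tested genes in each IT comparison, with 0 passing the adjusted test.

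Some members moved together. Within groups, Mcl1 and Bcl2l11 had the highest rho of the 45 pairs, at 0.83, followed by Bcl2l1 and Bak1 at 0.70 and Pmaip1 and Bcl2l11 at 0.66. The lowest were Bcl2 with Pmaip1 and Mcl1 with Bax, both at -0.34. Over the 23 tumors centred within route, the genes most like Mcl1 were Msr1, a scavenger receptor of macrophages, with a rho of 0.94, and Twsg1 with 0.92. Those most like Bcl2l11 were Casp12 and Cd86, a costimulatory molecule of antigen-presenting cells, both with 0.89.

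Genes close to the other members were looked up in the same way among 13388 genes. They were Tifab (0.88) and Brox (0.87) for Bcl2l1, Fbxl5 (0.88) and the kinase gene Map3k8 (0.87) for Pmaip1, and Trak1 (0.79) for Bak1. Bad was closest to Pmm2 (0.80) and Cenpb (0.78), and Bid to the mitochondrial carrier gene Slc25a22 (0.79) and to Helz2 (0.76). The values were lower for Bbc3, with Limd2 (0.75) and the cell cycle inhibitor gene Cdkn1b (0.70), for Bcl2, with Arhgdig (0.71) and Qrich1 (0.68), and for Bax, with Plcd1 (0.70) and Zfp566 (0.70).

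Other genes of the apoptosis pathway were read from lists chosen with earlier results of these data known. Among 16 regulators tested in NCTD_IT, where 1.37% of all genes passed, 1 rose and 2 fell: Mdm2, the ubiquitin ligase of p53, rose by 0.81 (SE 0.19, adjusted p = 0.0467), Mitf fell by 0.86 (adjusted p = 0.0363), and Bag6, a chaperone gene, fell by 0.71 (adjusted p = 0.0455). Mdm2 had 95.3, 112, 95.3 and 94.9 CPM in CTRL_IT and 164, 192, 165 and 178 CPM in NCTD_IT. These groups did not overlap, as was so for 16.8% of all genes. PTX_IT (125, 160 and 117 CPM) and MIX_IT (137, 126, 232 and 140 CPM) also lay wholly above the controls for Mdm2. In these groups 7.94% and 9.9% of all genes did not overlap with the controls, and 0% passed. Mitf had 751, 696, 812 and 1021 CPM in CTRL_IT and 428, 338, 594 and 440 CPM in NCTD_IT. MIX_IT, at 329 to 380 CPM, also lay wholly below the controls, with a mean of 352 CPM against 450 CPM in NCTD_IT. Mitf did not pass in MIX_IT, where 0% of all genes passed. The summed melanocyte markers, a list that holds Mitf itself, had lower levels in NCTD_IT, with a median of 24271 CPM against 32447 CPM in CTRL_IT, and their part in the Mitf result was not tested. The p53 targets Pmaip1 and Bbc3 were at log2 fold changes of 2.18 (adjusted p = 0.251) and -0.23 (adjusted p = 0.685) in NCTD_IT. Bcl2, a target of MITF, was at 0.24 (adjusted p = 0.636). Whether these levels are linked to Mdm2 or Mitf was not tested. In the 8 fits that left out 1 tumor, Mdm2 passed in 1, Mitf in 2 and Bag6 in 0, and with Xist as a covariate 0 of all genes passed in NCTD_IT.

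No gene of the other lists passed in any of the 6 comparisons with a control. Of the 6 inhibitors of apoptosis, 5 were higher in NCTD_IT at an unadjusted p below 0.05, led by Birc2 at 1.03 (SE 0.29, adjusted p = 0.0632) and Birc6 at 0.48 (SE 0.15, adjusted p = 0.0921), and the share of all genes that were higher at that threshold was 11.6%. Of 10 tested genes of the apoptosome and mitochondrial release, Vdac3, a channel of the outer mitochondrial membrane, was at -0.96 (adjusted p = 0.0579) and Cycs, cytochrome c, at -0.61 (adjusted p = 0.0737) in NCTD_IT. Of the 7 caspases, Casp12 was at 1.58 (adjusted p = 0.184) and Casp2 at 0.70 (adjusted p = 0.166). In MIX_IT the death receptor gene Tnfrsf10b was at 0.87 (adjusted p = 0.267), and at 0.54 (adjusted p = 0.669) without MIX_IT tumor 23, and the adaptor Fadd was at -0.65 (adjusted p = 0.339). Among 11 tested members of the wider BCL2 family, Bnip3l, a mitophagy receptor, was at -0.66 (adjusted p = 0.204) in MIX_IT and Bcl2a1d at 1.52 (adjusted p = 0.23) in NCTD_IT. Bcl2a1d belongs to near-identical copies whose reads could have been split.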

How the data were processed

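The authors prepared 3′ mRNA libraries from tumors, used Trimmomatic for trimming and STAR 2.7.11b for alignment to GRCm39, and deposited unnormalized counts per gene. FastQC is named for read checks. The counter's strand setting and its treatment of multiply aligned reads are not given in the sources used here. All columns of tumor counts were used. Groups were read from the titles.

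Tests were run in edgeR 4.0.16 under R 4.3.3 (filterByExpr, minimum count 10 and minimum total 15, TMM, quasi-likelihood F-test, two-sided), adjusted over all genes at a threshold of 0.05, with the 4 groups of a route in 1 fit and all 23 tumors for route differences. CPM were scaled by TMM over 23 tumors, and log2 CPM used a prior count of 2. Marker sums were log transformed after adding 1 CPM. Alternatives included DESeq2 1.42.0. Same-group tumors differed by more than sampling noise (chi-square per degree of freedom 8.09 to 64.6). The fits were tested on simulated data.

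All 10 members were named in every comparison. From each other apoptosis list, genes that passed against a control (at most 4 per comparison) were named, or otherwise the 2 with the smallest p over the 6 comparisons; the cell type markers S100a8, S100a9, Ly6g, Ms4a1 and Cd79a were named after their values were seen. The 2 genes of highest rho were named for each member, except that 1 gene for Bak1 and 1 marker are not reported here. The members and lists were chosen with earlier results of these data known.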

Additional observations from a re-analysis of the deposited data

Results flagged for a closer look

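Bcl2 in MIX_IT tumor 23, at 21.5 CPM, lay far below the other 3 tumors of its group, at 52.0 to 53.7 CPM, and its gap to the next tumor was 0.948 of the range of the group. It was 1 case among 30 sets of 4 tumors, where chance gives about 1 in 20 such sets. The same tumor had the highest fibroblast marker sum (8578 CPM) and the lowest melanocyte marker sum (17791 CPM) of the 23 tumors. The part of these markers in the value was not tested.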

How the results depend on the processing

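The count of family genes past the adjusted threshold stayed at 0 in each of the 12 comparisons under the settings tried: DESeq2 (with all groups of a route or only the 2 compared), DESeq2 size factors in edgeR, no filter on low counts, only the 2 groups compared, all 23 tumors in 1 fit, Xist as a covariate, each tumor left out, and NCTD_IT tumor 18 and MIX_IT tumor 23 left out together (chosen after seeing the data). At an unadjusted p below 0.05 the count of family genes was at most 3 in any of these comparisons and settings. With Xist as a covariate it was 1 in each of NCTD_IT, PTX_IT and MIX_IT. That gene was Bcl2l11 each time, at -2.64 (unadjusted p = 0.00728) in NCTD_IT, -1.98 (0.0215) in PTX_IT and 0.84 (0.0337) in MIX_IT. The share of all genes below an unadjusted 0.05 with this covariate is not given here. The call over all genes did move: in NCTD_IT it was 171 genes, but 991 with DESeq2, 1501 with DESeq2 on 2 groups, 166 with DESeq2 size factors, 777 with all 23 tumors, 1190 with no filter, 946 with only the 2 groups and 0 with Xist. In MIX_IT it was 0, but 218, 338, 9, 364 and 22 with DESeq2, DESeq2 on 2 groups, all 23 tumors, no filter and Xist, and in PTX_IT it was 0, but 3, 15 and 222 with DESeq2, DESeq2 on 2 groups and no filter. The causes were not tested. When only 2 groups were fitted, 8 of the 10 genes passed the filter in NCTD_IT and 9 in PTX_IT and MIX_IT. No paired analysis was possible because each replicate number occurs once and the groups share none.

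With Xist as a covariate the direction turned for these log2 fold changes. In NCTD_IT these were Bcl2l1 (-0.91), Bcl2l11 (-2.64), Mcl1 (-0.36), Pmaip1 (-1.71), Bcl2a1d (-1.47), Birc2 (-0.40), Casp12 (-2.28) and Cycs (0.015). In PTX_IT they were Bbc3 (-0.26), Bcl2l1 (-0.75), Bcl2l11 (-1.98), Bid (-0.019), Mcl1 (-0.30) and Pmaip1 (-2.19), and in MIX_IT Mcl1 (0.048). For MIX_IP they were Bax (-0.0056), Bcl2l1 (0.21), Bcl2l11 (0.087) and Mcl1 (0.044), for PTX_IP Bax (-0.34) and Mcl1 (0.051), and for NCTD_IP Bid (0.046) and Mcl1 (0.037). Bbc3 in MIX_IT against PTX_IT was 0.11, the departure of Bcl2l1 from the sum was 2.04 and the difference between routes for Bcl2l11 under PTX was -0.68. Sex and treatment cannot be told apart here. With group in the fit, the slope for Xist rested on differences between tumors of the same group. In the IP route only a CTRL_IP tumor had Xist counts. That slope was carried over to the differences in Xist between groups, so the turned values are not estimates free of sex. Without NCTD_IT tumor 18 and MIX_IT tumor 23, Bax in MIX_IT was -0.26 and Mcl1 in MIX_IT 0.04, and Mitf in NCTD_IT missed the threshold (adjusted p = 0.0578).

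Leaving out 1 tumor at a time turned the direction in these cases. Bad ranged from -0.39 to 0.41 in MIX_IP and from -0.41 to 0.30 in PTX_IT. Bak1 ranged from -0.19 to 1.53 in MIX_IP, -0.35 to 0.48 in MIX_IT, -0.11 to 1.61 in NCTD_IP, -0.31 to 1.41 in PTX_IP and -0.81 to 0.23 in PTX_IT. Bax ranged from -0.076 to 0.84 in MIX_IP, -0.31 to 0.56 in MIX_IT, -0.48 to 0.50 in PTX_IP and -0.80 to 0.062 in PTX_IT, and Bbc3 from -0.20 to 0.63 in MIX_IP. Bcl2 ranged from -0.0097 to 0.41 in NCTD_IP, -0.22 to 0.26 in PTX_IP and -0.24 to 0.29 in PTX_IT, and Bcl2l1 from -0.20 to 0.21 in MIX_IP and -0.41 to 0.62 in PTX_IP. Bcl2l11 ranged from -0.78 to 0.19 in MIX_IP, and Bid from -0.29 to 0.071 in NCTD_IP and -0.049 to 0.50 in PTX_IT. Mcl1 ranged from -0.12 to 0.043 in MIX_IP, -0.062 to 0.070 in MIX_IT, -0.15 to 0.066 in NCTD_IP and -0.26 to 0.15 in PTX_IP, and Pmaip1 from -6.52 to 0.16 in PTX_IP. Where an IP group was left with 1 tumor, that tumor was assumed to vary like the other groups. Counts under 40 per tumor limit what Pmaip1 and Bax can show.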
